A study of Mus musculus with 4 samples.

Results

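Fatty acid handling was followed in pancreatic islet cells through 10 genes, which are Cd36, Slc27a1, Slc27a4, Fabp5, Ffar1, Cpt1a, Lpl, Plin2, Ppara and Pparg, of the 22911 mouse genes that had a named probe on the arrays. The 10 genes were selected with measured values of these same arrays known, Cd36 above all, so their values are given as a description without a test. Islet cells came from 60-week-old male C57BL/6 littermates, with 4 animals in all. After isolation, the dispersed cells received ex vivo, at 10 μM for 24 h, either MOTS-c, a peptide encoded in mitochondrial DNA, or a scrambled peptide as the control. RNA was measured on 4 one-color Agilent arrays, with replicates 1 and 2 for scrambled and replicates 2 and 3 for MOTS-c. The cells are a mixture of the islet cell types, and cells without any peptide were not analysed here, so the comparison is with the scrambled peptide alone.

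Fatty acids enter cells by way of CD36 and the fatty acid transport proteins, are carried in the cytosol by fatty acid binding proteins, and are then imported into mitochondria for oxidation or stored as triglyceride in lipid droplets. In β-cells they also act as signals, since the receptor FFAR1 (also called GPR40) raises glucose-stimulated insulin secretion. The nuclear receptors PPARα and PPARγ bind fatty acids and, paired with a retinoid X receptor, switch on many genes of this pathway, commonly through a pair of AGGTCA hexamers with a spacer of a single base, called DR1.

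To show the sequence in front of these genes, the bases upstream of annotated starts were read from RefSeq (assembly GRCm38.p6) for 12 start sites of 8 of the 10 genes. The hexamer AGGTCA, searched on both strands in a window of 300 bases, was in 5 of the 12 windows, and 16.3% of 32851 mouse promoter windows of the same length held it. The DR1 motif AGGTCANAGGTCA, which overlaps with the hexamer search, was in 0 of the 12 windows and in 0.0396% of all promoter windows. A match of letters is a description and not a binding site. The 250 bases upstream of the starts of Cd36, Plin2 and Cpt1a are printed because each holds a hexamer and the genes stand for uptake, storage and oxidation. They run from 5′ to 3′ on the strand of the gene, and the capitals mark the hexamer, which reads TGACCT on this strand. The Cd36 sequence is chr5:17835897-17836146 on the minus strand, with the hexamer starting at position -228 from the start of transcription. The Plin2 sequence is chr4:86670060-86670309 on the minus strand, with the hexamer at -218. The Cpt1a sequence is chr19:3323051-3323300 on the plus strand, with the hexamer at -94. The windows of Pparg with a hexamer are not printed.
Cd36: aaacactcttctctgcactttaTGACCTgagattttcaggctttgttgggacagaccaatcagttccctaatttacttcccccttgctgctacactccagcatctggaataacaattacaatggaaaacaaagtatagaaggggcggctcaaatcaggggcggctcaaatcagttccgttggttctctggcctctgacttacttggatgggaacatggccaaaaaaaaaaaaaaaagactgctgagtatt
Plin2: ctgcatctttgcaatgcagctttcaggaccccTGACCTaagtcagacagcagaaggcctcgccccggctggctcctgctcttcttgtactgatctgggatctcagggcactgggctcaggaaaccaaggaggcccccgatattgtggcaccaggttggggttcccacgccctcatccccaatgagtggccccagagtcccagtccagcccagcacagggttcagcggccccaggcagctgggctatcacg
Cpt1a: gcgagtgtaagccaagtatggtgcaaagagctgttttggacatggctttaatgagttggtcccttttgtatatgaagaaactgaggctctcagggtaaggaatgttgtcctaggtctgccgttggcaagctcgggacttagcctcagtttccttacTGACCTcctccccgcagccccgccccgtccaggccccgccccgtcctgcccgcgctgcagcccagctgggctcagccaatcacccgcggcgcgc

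Each value below is a normalized log2 signal of a probe, so a difference of 1 is a doubling, and signals of different probes cannot be set against each other. A total of 15 probes mapped to the 10 genes, and all 15 were well above background on all 4 arrays. Spots well above background were 61.6 to 65.0% of gene spots, and the median absolute difference between replicate arrays was 0.16 for scrambled and 0.19 for MOTS-c (log2). MOTS-c replicate 3 stood apart, with a score of 51.0 on the first principal component against -34.4 to -5.03 for the other arrays, so the differences of the 10 genes (brightest probe) and of the 6 wider genes called below are also given without it. The labels give male animals, but the 7 Y-linked probes gave 0 readings above background out of 28, while Xist was detected on 4 of 4 arrays, so the labelled sex does not match these RNAs. Of 8 β-cell markers 7 passed the background filter and Ucn3 did not, and the differences for Ins1, Ins2, Gcg and Sst were -0.04, -0.05, 0.11 and -0.28. The probes of Ins1, Ins2 and Sst are very bright (log2 17.16 or more on every array). Quantile normalization gives probes of equal rank equal values, which can hold differences among such bright probes small. Pyy of the PP-cell list did not pass, and Ppy was well above background on 3 of 4 arrays.

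No probe on the arrays passed an adjusted p of 0.05 (limma, 0 of 35087 probes, 0.0%), with a smallest adjusted p of 0.474. At an unadjusted p under 0.05, 2755 probes were called, and the methods' test on the same values called 2312 unadjusted and 1 after adjustment. With a change of at least 1.5-fold as well, 1.1% of probes were higher and 2.43% were lower with MOTS-c. With 2 arrays a group, the smallest two-sided p of an exact permutation test is 0.333. In bulk RNA fewer cells of a type cannot be told apart from less RNA per cell.

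Cd36 and Lpl had both MOTS-c readings above both scrambled readings, and for Plin2, Ppara and Pparg both MOTS-c readings lay below. The other 5 genes, Slc27a1, Slc27a4, Fabp5, Ffar1 and Cpt1a, had overlapping groups. So 2 of 10 genes were higher without overlap, beside 19.4% of all probes, and 3 of 10 were lower without overlap, beside 18.6%. The genes were chosen on this contrast, and nothing is read from these shares. The median difference of the 10 genes was -0.12 on the log2 scale, beside 0.01 over all probes, and 8 of the 10 lay within 0.5 of zero.

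**Figure D1:**
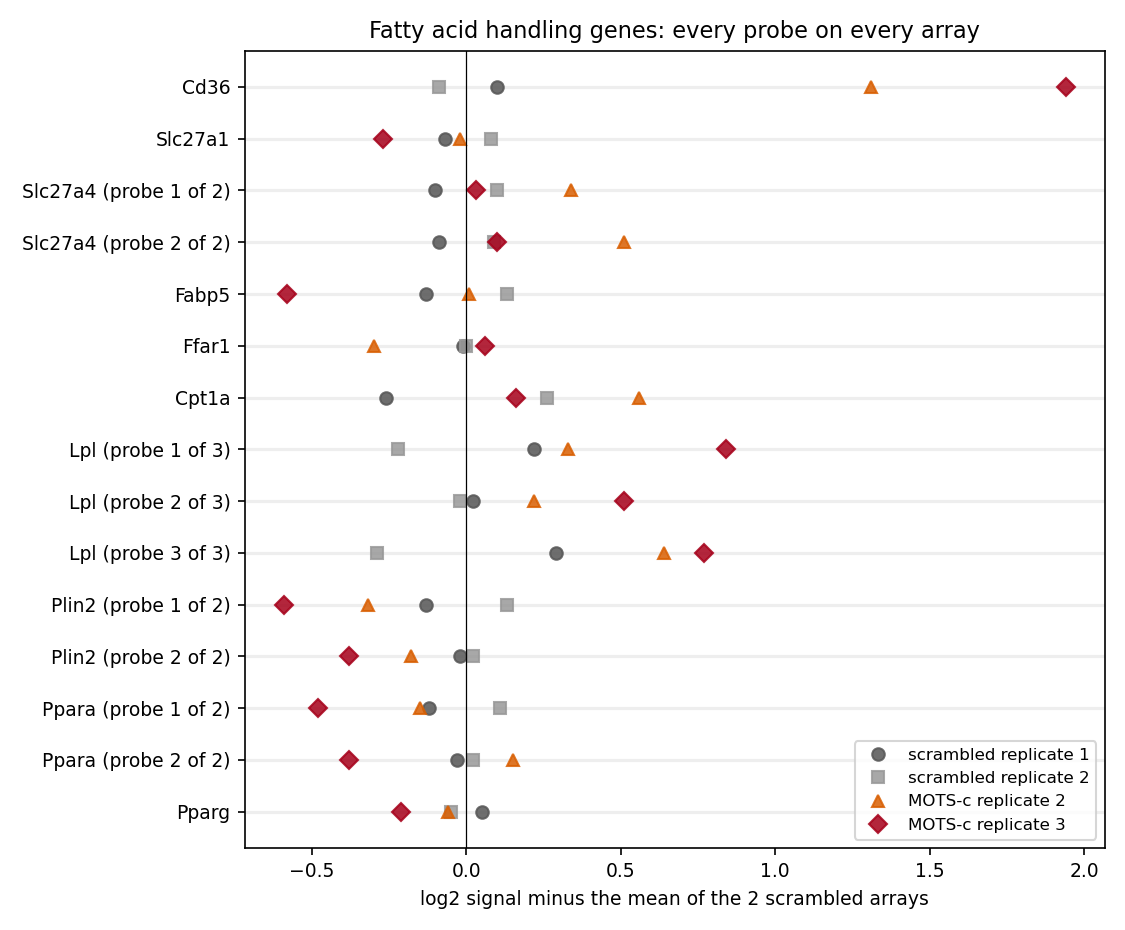
Each row is a probe of a fatty acid handling gene, with the brightest probe of a gene first, and each point is an array, placed at its log2 signal minus the mean of the 2 scrambled arrays of that probe. Cd36 stands far to the right on both MOTS-c arrays, the 3 Lpl probes lie to the right by less, and both Plin2 probes lie to the left.

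Among the uptake genes, Cd36 gave the widest difference of the 10 genes. Cd36 encodes the fatty acid translocase, a scavenger receptor that takes up long-chain fatty acids and oxidized lipoproteins. Its only probe read 6.01 and 5.82 with scrambled (replicates 1 and 2) against 7.22 and 7.85 with MOTS-c (replicates 2 and 3). The groups were separated by 1.21 between the nearest arrays, and the MOTS-c arrays differed from each other by 0.63 against 0.19 for the scrambled arrays. The group means were 5.91 ± 0.13 and 7.54 ± 0.44 (SD, n = 2), a difference of 1.62 with a standard error of 0.25, or 3.08-fold. Among all 35087 probes, 27 had a larger rise.

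Cd36 was a dim probe in the scrambled group. Its spot was 3.35 and 3.40 times its local background with scrambled and 5.94 and 10.0 times with MOTS-c. Over the 1939 probes within 0.25 log2 of its mean signal, the median difference between replicates was 0.21 for scrambled and 0.25 for MOTS-c, so the MOTS-c replicates of Cd36 lay further apart than the median of such probes. Without MOTS-c replicate 3 the difference was 1.31, and without MOTS-c replicate 2 it was 1.93. With normexp in place of the subtracted background (offset 50) it was 0.94 or 1.92-fold. The offset is added to every signal before log2 is taken, which by arithmetic narrows differences of dim probes.

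**Figure D2:**
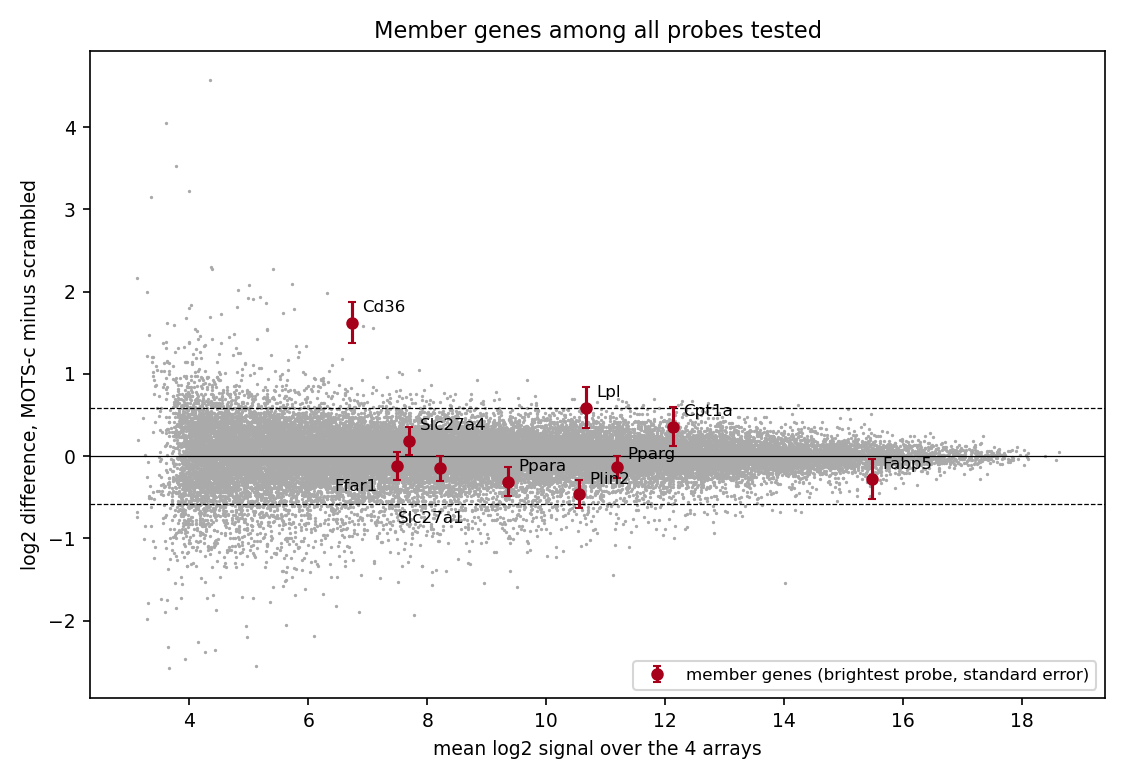
Each grey dot is a probe, with its mean log2 signal over the 4 arrays across and its log2 difference, MOTS-c minus scrambled, up. Red points with standard errors are the brightest probes of the 10 genes and dashed lines mark 1.5-fold. Cd36 at 1.62 lies above the cloud at its signal, Lpl at 0.59 lies on the line and the other 8 lie within the cloud.

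The fatty acid transport proteins Slc27a1 and Slc27a4, which couple uptake to activation with coenzyme A, did not show the difference of Cd36. The Slc27a1 probe read 8.21 and 8.36 with scrambled and 8.26 and 8.01 with MOTS-c, a difference of -0.15 ± 0.15 (SE). The brighter Slc27a4 probe read 7.51 and 7.71 against 7.95 and 7.64, a difference of 0.19 ± 0.17, with overlapping groups. The dimmer Slc27a4 probe read 4.97 and 5.15 against 5.57 and 5.16, a difference of 0.31 ± 0.19, and its groups were apart by 0.01. MOTS-c replicate 2 was the highest array for both Slc27a4 probes and MOTS-c replicate 3 lay beside scrambled replicate 2. Without MOTS-c replicate 3 the differences were -0.02 for Slc27a1 and 0.35 for the brighter Slc27a4 probe.

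Fabp5, a cytosolic carrier of fatty acids, and Ffar1, the fatty acid receptor of β-cells, did not separate the groups. Fabp5 read 15.49 and 15.75 with scrambled and 15.63 and 15.04 with MOTS-c, a difference of -0.28 ± 0.24. The lower mean came from MOTS-c replicate 3, and without it the difference was 0.01. Ffar1 read 7.54 and 7.55 against 7.25 and 7.61, a difference of -0.12 ± 0.17. For Ffar1 it was MOTS-c replicate 2 that was low, and the difference was 0.06 without that array and -0.29 without MOTS-c replicate 3.

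Cpt1a encodes the carnitine palmitoyltransferase that controls entry of long-chain fatty acids into mitochondria. Cpt1a read 11.69 and 12.21 with scrambled and 12.51 and 12.11 with MOTS-c, a difference of 0.36 ± 0.24. MOTS-c replicate 2 was the highest array, but MOTS-c replicate 3 lay below scrambled replicate 2, so the groups overlapped. Leaving out an array at a time gave 0.10 to 0.61, with 0.56 without MOTS-c replicate 3.

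Lipoprotein lipase releases fatty acids from circulating triglyceride, and all 3 Lpl probes were higher on both MOTS-c arrays. The brightest Lpl probe read 10.60 and 10.16 with scrambled and 10.71 and 11.22 with MOTS-c, a difference of 0.59 ± 0.25 or 1.5-fold. The second read 6.86 and 6.82 against 7.06 and 7.35, a difference of 0.36 ± 0.15. The third read 5.02 and 4.44 against 5.37 and 5.50, a difference of 0.70 ± 0.23. Scrambled replicate 1 and MOTS-c replicate 2 were close on the brightest probe, and the difference there was 0.33 without MOTS-c replicate 3 and 0.84 without MOTS-c replicate 2.

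Plin2, a coat protein of lipid droplets whose amount follows stored triglyceride, was lower on both MOTS-c arrays with both probes. The brighter Plin2 probe read 10.66 and 10.92 with scrambled and 10.47 and 10.20 with MOTS-c, a difference of -0.46 ± 0.17. The other read 7.16 and 7.20 against 7.0 and 6.80, a difference of -0.28 ± 0.13. MOTS-c replicate 3 was the lowest array on both, and without it the brighter probe differed by -0.32.

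Ppara and Pparg encode nuclear receptors for fatty acids, the former tied to oxidation and the latter to storage. The brighter Ppara probe read 9.39 and 9.62 with scrambled and 9.36 and 9.03 with MOTS-c, a difference of -0.31 ± 0.18. The other Ppara probe read 8.02 and 8.07 against 8.20 and 7.67, a difference of -0.11 ± 0.21, with overlapping groups. Pparg read 11.31 and 11.21 against 11.20 and 11.05, a difference of -0.13 ± 0.13. The brighter Ppara probe was apart by 0.03 and Pparg by 0.01, and MOTS-c replicate 3 was the lowest array on all 3 probes. Without that array the differences of the brighter Ppara probe and of Pparg were -0.15 and -0.06.

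**Figure D3:**
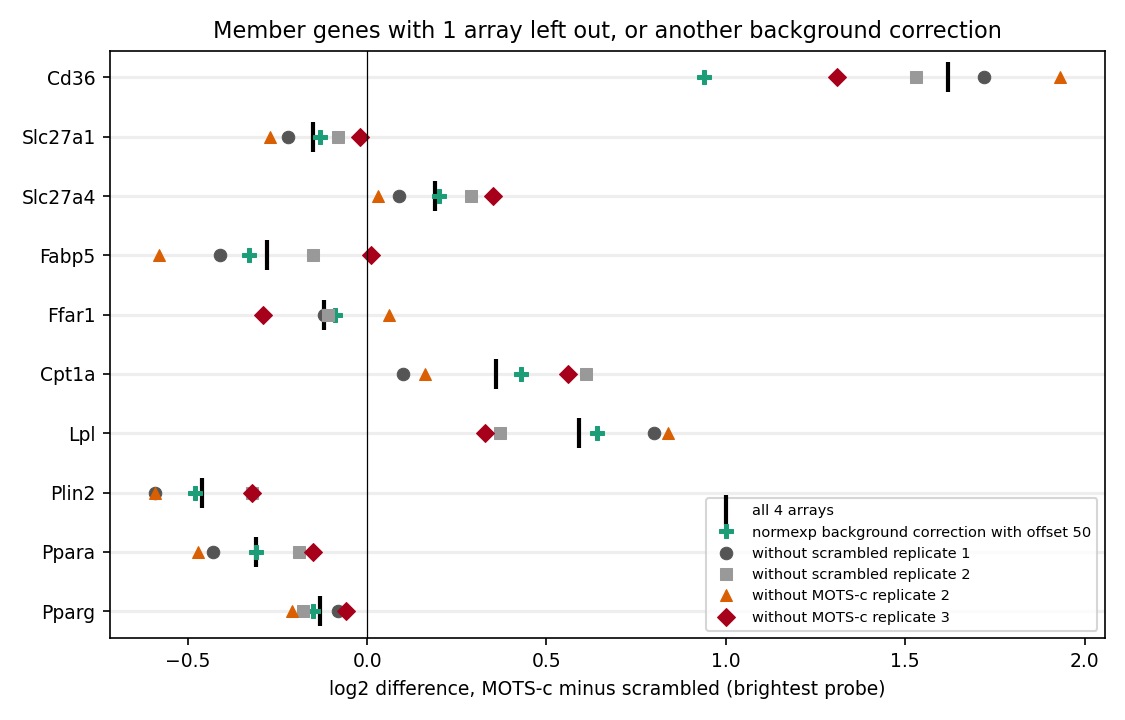
For each of the 10 genes the black bar is the log2 difference over all 4 arrays (brightest probe), the other marks leave out 1 array each, and the green cross uses the normexp background correction. Cd36 and Lpl stay above zero, Plin2, Ppara and Pparg stay below it, and Fabp5 and Ffar1 cross it when MOTS-c replicate 3 or MOTS-c replicate 2, respectively, is left out. The groups of Cd36, Lpl, Plin2, Ppara and Pparg do not overlap, so leaving out an array could hardly turn their sign.

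To place these genes in the pathway, 89 further genes were listed by function, and 72 of them had a probe that passed the background filter. None of the 72 passed an adjusted p of 0.05 (limma, smallest adjusted p = 0.474), and 9 had an unadjusted p under 0.05. With at least 1.5-fold as well, 0 were higher and 6 were lower with MOTS-c, which is 8.33% of the 72 beside 2.43% of all probes. Without overlap, 12 were higher (16.7%, beside 19.4% of all probes), 18 were lower (25.0%, beside 18.6%) and 42 overlapped, and their median difference was -0.04. The lists were drawn up with earlier results of these data known. The brightest probe of each gene is set beside all single probes, so the shares are a description.

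The 6 genes with lower values were receptors, droplet coats, a lipase cofactor and a PPAR partner, and none passed the adjusted test. Ffar2, the receptor for short-chain fatty acids, read 9.26 and 9.12 with scrambled and 8.24 and 8.39 with MOTS-c, a difference of -0.87 ± 0.13 (limma adjusted p = 0.474). Gpr119, a receptor for lipid amides that raises insulin secretion, read 6.32 and 6.82 against 5.89 and 5.56, a difference of -0.85 ± 0.23 (limma adjusted p = 0.539). The 4 receptor genes that could be measured, of 5 listed, had a median difference of -0.65 and all 4 had lower means.

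Plin3 and Plin5 coat lipid droplets as Plin2 does, and their values were lower as well. Plin3 read 6.58 and 6.97 with scrambled and 5.77 and 5.80 with MOTS-c, a difference of -0.99 ± 0.17 (limma adjusted p = 0.474), and -0.48 under normexp. Plin5, which ties droplets to mitochondria, read 9.28 and 9.42 against 8.68 and 8.15, a difference of -0.93 ± 0.22 (limma adjusted p = 0.512), and its second probe gave -0.89. Abhd5, an activator of triglyceride lipolysis, had the largest rise of this list at 0.55 ± 0.15 (limma adjusted p = 0.539). The 15 droplet and lipolysis genes measured had a median of -0.12, with 4 higher and 4 lower without overlap (26.7% each, beside 19.4% and 18.6% of all probes).

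Rxrg, a retinoid X receptor that pairs with PPARs, read 8.16 and 8.42 with scrambled and 7.54 and 7.20 with MOTS-c, a difference of -0.92 ± 0.18 (limma adjusted p = 0.486). The 8 PPAR partners and coregulators measured had a median of 0.00, and the largest rise was 0.18 for Nrip1, a corepressor. Of 10 classic PPAR targets, 4 passed the background filter, with a median of -0.03, and they ranged from Fgf21 at -0.70 ± 0.37 (limma adjusted p = 0.724) to Ucp2 at 0.01. Fgf21 was dim, at 1.39 to 2.13 times background. It read 5.30 and 4.23 with scrambled and 4.03 and 4.09 with MOTS-c, so its difference came mainly from scrambled replicate 1.

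Apoc2, the cofactor that activates lipoprotein lipase, was dim and well above background on 3 of 4 arrays, with readings of 4.53 and 5.04 with scrambled and 3.85 and 4.31 with MOTS-c. Its difference was -0.70 ± 0.25 (limma adjusted p = 0.614), and -0.11 under normexp. The 7 genes of the lipoprotein lipase system measured had a median of -0.08, from Apoc2 to Gpihbp1, which anchors the lipase on capillaries, at 0.19. Lmf1, a lipase maturation factor, was at -0.30 with its brightest probe and at 0.00 with the other. Of these 7 genes, 1 was higher and 3 were lower without overlap (14.3% and 42.9%, beside 19.4% and 18.6% of all probes). Lipg, Angptl4 and Vldlr had overlapping groups, at -0.08, -0.07 and -0.04. A contrast with the higher values of Lpl was not tested, and none is read from these genes.

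The 21 genes of mitochondrial import and β-oxidation beside Cpt1a all passed the filter and had the narrowest range of the 8 lists. Their differences ran from -0.17 for Cpt1c to 0.22 for Hadh, with a median of 0.00, and 5 were higher and 3 lower without overlap (23.8% and 14.3%, beside 19.4% and 18.6% of all probes). Most of their probes were bright, and replicates of bright probes differed less. Near the signal of Cpt1a (12.13) the median replicate difference was 0.11 for scrambled and 0.13 for MOTS-c. Near that of Cd36 (6.73) it was 0.21 and 0.25. So the narrow range is not read as a trait of these genes. The 8 other uptake and activation genes had a median of 0.17, from Acsl5 at -0.17 to Acsl1, a long-chain acyl-CoA synthetase, at 0.51 ± 0.13 (limma adjusted p = 0.531). The 5 other fatty acid binding proteins had a median of -0.27, with Fabp7 lowest at -0.93 ± 0.45 (limma adjusted p = 0.705). Fabp7 was dim, at 1.76 to 2.84 times background. It read 5.84 and 6.08 with scrambled and 5.69 and 4.38 with MOTS-c, so its difference came mainly from MOTS-c replicate 3.

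Without MOTS-c replicate 3, Ffar2 differed by -0.96, Gpr119 by -0.68, Plin3 by -1.01, Plin5 by -0.67, Rxrg by -0.76 and Apoc2 by -0.93. Under normexp Gpr119 differed by -0.38. The count of 6 lower genes moved to 3 under normexp and 3 by the methods' test, and to 9 lower and 1 higher when MOTS-c replicate 2 was left out.

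**Figure D4:**
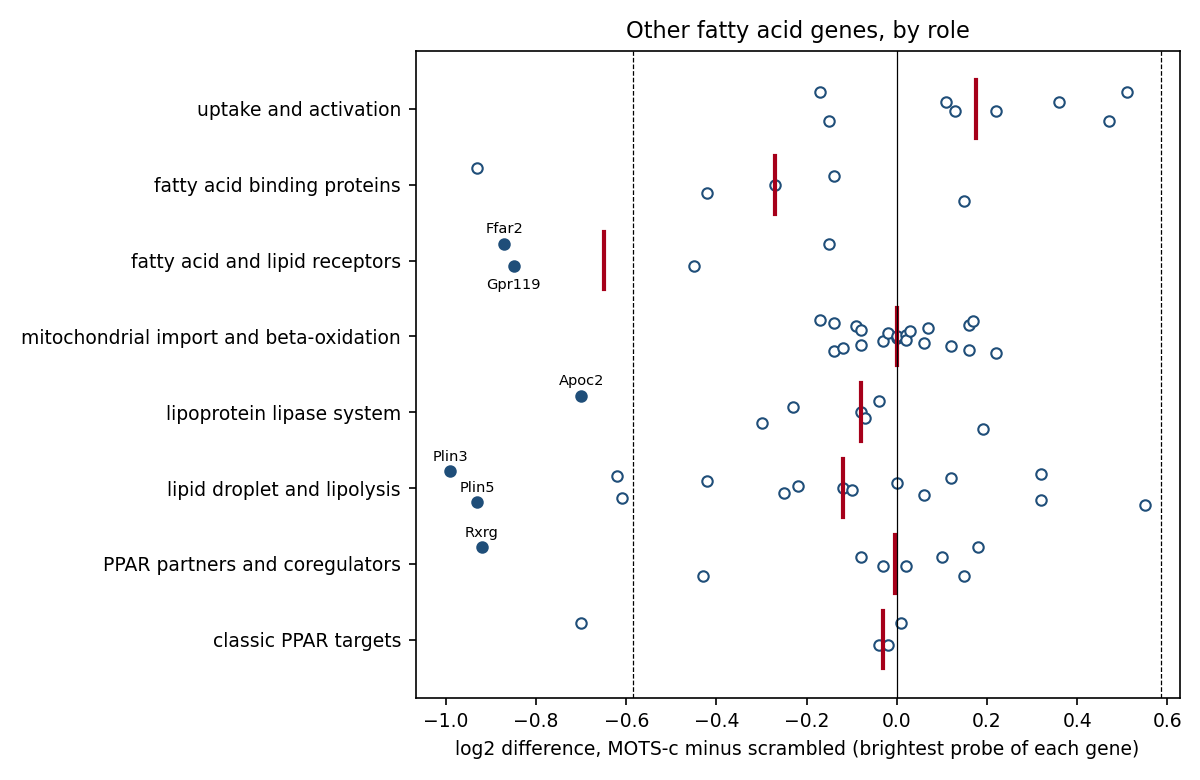
Each circle is a gene of a functional list, placed at its log2 difference, MOTS-c minus scrambled, of its brightest probe, and red bars mark the list medians. Dashed lines mark 1.5-fold, and filled, named circles are the 6 genes with an unadjusted p under 0.05 and at least that change, all lower with MOTS-c. The 21 β-oxidation genes cluster around zero, and most of their probes are bright, where replicates differ less.

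By the likeness of their profile over the 4 arrays, measured as the root mean square difference of centred log2 values, the genes most like Cd36 among 21813 probes were Chst7 (0.20), Atf7ip2 (0.25), Lmo4 (0.27), Bcar3 (0.30) and Dio2 (0.33). Their differences between groups were 1.56, 1.21, 1.34, 1.26 and 1.05, which follows from the choice by likeness. Chst7 encodes a carbohydrate sulfotransferase, Lmo4 a LIM-only transcriptional regulator and Dio2 the deiodinase that activates thyroid hormone. None of the 5 is on the fatty acid lists, but these hold few of the 21813 probes, so nothing is read from that. The likeness rests on 4 arrays.

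Cd36 and Lpl are also made by macrophages, endothelial cells and adipocytes, so markers of these cells were read beside them. Of 8 endothelial markers 4 passed the filter, Cdh5, Kdr, Emcn and Tie1 were above background on 0 arrays, and the summed signal was 2010 to 2510 in scrambled and 2000 to 2370 in MOTS-c arrays. Of 8 macrophage markers 4 passed, Adgre1, C1qc, Mrc1 and Lyz2 were above background on 0 arrays, and the summed signal was 4100 to 5370 in scrambled and 3500 to 4210 in MOTS-c arrays. Of 7 adipocyte markers 4 passed, Adipoq and Cfd were above background on 0 arrays, and the summed signal was 347 to 463 in scrambled and 335 to 424 in MOTS-c arrays. The ranges of the 2 groups overlapped for each of these 3 sums. Each sum was carried mainly by its brightest probe, which was Plvap, Csf1r and Lep in turn, so it says little about the other markers. Single endothelial markers moved both ways, with Esam lowest at -0.43 ± 0.14 (limma adjusted p = 0.578) and Gpihbp1 highest at 0.19.

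No single marker passed the adjusted test, and those with an unadjusted p under 0.05 and at least 1.5-fold in the non-endocrine lists were C1qa and Pdgfra. C1qa, a complement gene of macrophages, was at -0.67 ± 0.20 (limma adjusted p = 0.548). Pdgfra, a marker of mesenchymal cells, was at -1.05 ± 0.33 (limma adjusted p = 0.567), and the summed signal of the 2 mesenchymal markers that passed, of 6, was 202 to 235 in scrambled and 141 to 165 in MOTS-c arrays. Of 6 acinar markers 3 passed (162 to 199 against 158 to 180), and of 5 ductal markers 2 passed (151 to 238 against 139 to 201). Among endocrine genes, the β-cell glucose transporter gene Slc2a2, singled out after its values were seen, was at -1.33 ± 0.14 (limma adjusted p = 0.474, above background on 3 arrays). The part of these cells in the differences of the fatty acid genes was not tested.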

How the data were processed

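RNA of 4 samples was amplified, labelled with Cy3 and hybridized, and the authors read each spot with Feature Extraction 11.0.1.1. The deposited intensity values had the background subtracted array by array and were not scaled to each other, and the flags deposited beside them mark spots well above background. A deposited value table holds the same intensity values rounded, at a ratio of 0.995 to 1.005 to the scanner values.

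The 3671 control spots and 96 to 131 outlier spots per array were left out, log2 was taken of the deposited intensity, and repeated spots were averaged by probe. Of 56605 probes, the 35087 well above background on at least 2 of 4 arrays were quantile normalized. The authors' Flag A is not defined, and this filter stands in for it. limma 3.58.1 (R 4.3.3) compared MOTS-c with scrambled, with Benjamini-Hochberg adjustment over all 35087 probes. The fit had 2 residual degrees of freedom, and 2.64 more came from the prior over all probes. The number of arrays limits the precision. The labels give 4 littermates, but do not say which animal each array holds, so p-values measure the spread between these samples.

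Probes were named by accession through the RefSeq gene table (assembly GRCm38.p6), which paired 32994 probes with a symbol. Coordinates of probes are not given, since the arrays were annotated on a different build, and those of promoters come from the RefSeq table. A gene with several probes was followed in counts by its brightest probe, and all probes of the 10 genes are given. The text names the 10 genes, the 5 most like Cd36, the wider genes past 1.5-fold at an unadjusted p under 0.05, the largest rise and fall of each wider list, and cell type markers, some of which are not reported here. The members and lists were chosen with earlier results of these data known. Steps were tested on simulated data. In the simulated arrays of the limma fit the spread was shuffled over probes and no array stood apart, so they do not copy the noise of these arrays. The alternatives were a 75th percentile shift, normexp with offset 50 (on median signals, since the files hold no mean signal), the deposited value table, no filter, a filter on all 4 arrays, leaving out each array, limma with a mean-variance trend, the methods' t-test on the same values, and the mean over the probes of a gene. All arrays lay on 1 slide and a slide block was not run.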

Additional observations from a re-analysis of the deposited data

How the results depend on the processing

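Cd36 was higher with MOTS-c under all 10 alternatives, by 0.94 to 1.93 on the log2 scale. The normexp correction, whose offset narrows differences of dim probes, gave the lowest value, 0.94, and leaving out an array gave 1.31 to 1.93. Of the 10 genes, 8 kept their sign under every alternative run. For the 5 genes without overlap, leaving out an array could hardly turn the sign, since each group lay on its own side. The deposited value table and the changed filters reuse the same readings, so a kept sign there says little. For Cd36 and the other genes with a single probe, the mean over the probes of a gene repeats the same value. Fabp5 turned to 0.01 without MOTS-c replicate 3 and Ffar1 to 0.06 without MOTS-c replicate 2. The count of genes without overlap, 5 of 10 (2 higher, 3 lower), was 5 to 7 under other processing, with 4 higher and 2 lower under normexp. It was 7 to 8 with an array left out, with 8 without MOTS-c replicate 2 and 8 without MOTS-c replicate 3, where fewer arrays enter. Over all probes, the 1239 calls at an unadjusted p under 0.05 and 1.5-fold (387 higher, 852 lower) were 406 under normexp (75 higher, 331 lower) and 457 by the methods' t-test. They were 1374 to 3264 with an array left out, with 3264 without MOTS-c replicate 2 (1441 higher, 1823 lower), and 1594 (753 higher, 841 lower) without scrambled replicate 1. In these fits the lone array was assumed to vary like the other group. The 6 wider genes called were 3 under normexp, 3 by the methods' t-test and 5 to 10 with an array left out, with 10 without MOTS-c replicate 2. No probe passed an adjusted p of 0.05 in any limma fit. The causes were not tested. No paired analysis was run, because the labels do not link any scrambled array to a MOTS-c array. The signal over background limits Cd36, whose scrambled spots were 3.35 and 3.40 times their local background.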
